A study of Mus musculus with 12 samples.

Results

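The genes described here make cholesterol, regulate its synthesis, move it inside the cell or export it. They were listed by name, 28 in all, and each was read by the probe set annotated to it alone, the one with the highest mean where there were several. A value could be given for 24 of them, out of 22180 genes read from the same arrays. The 24 comprised 16 of 18 listed synthesis enzymes, all 5 listed regulators of the sterol-sensing transcription factors (SREBPs), 1 of 2 transport and storage genes and 2 of 3 genes of cholesterol efflux. Idi1, the isomerase that interconverts the isoprene building blocks, was read only by a probe set annotated to a second gene as well and received no value. Acat2, Soat1 and Nr1h2 were not analysed here. The name under which the genes were gathered includes uptake, but none of the listed genes is an uptake receptor, so uptake is described only through related genes near the end.

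Cholesterol is built from acetyl-CoA through mevalonate, isoprene units and farnesyl diphosphate to squalene, and then through lanosterol and a chain of sterol intermediates. The enzymes are controlled together. When sterols run low in the endoplasmic reticulum, SCAP escorts SREBP to the Golgi, where proteases release its active part, which enters the nucleus and switches on the synthesis genes. When sterols are plentiful, INSIG proteins hold the SCAP-SREBP complex back. Surplus cholesterol is exported by ABC transporters whose genes are classical targets of the liver X receptors, which sense oxidised sterols. In epidermis, keratinocytes make cholesterol in place, and it is 1 of the main lipids of the skin barrier.

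RNA came from cultured mouse keratinocytes carrying floxed alleles of Atg7, an enzyme required for autophagy, the degradation of cell contents in lysosomes. All 4 groups carried the floxed alleles (Atg7 f/f). Autophagy-deficient cells also carried Cre driven by the promoter of keratin 14, the basal keratinocyte keratin, and are called KO. Cells without Cre are called wt. KO paraquat cells and wt paraquat cells received 20 µM paraquat, a herbicide that cycles electrons to oxygen and generates superoxide, for 48 h, and KO sham and wt sham cells were sham treated. Each group had 3 arrays, described as biological triplicates. The labels tie no array to an animal or culture, so the p-values cover the spread between these samples, whatever its source.

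Values are RMA signals (background-corrected, quantile-normalised array intensities in arbitrary units on a linear scale). A signal was compared between groups only for the same probe set. Changes are differences of mean log2 signal with the standard error (SE) of a limma fit over all 12 arrays, and adjusted p is the Benjamini-Hochberg value over the 22180 genes, with 0.05 as the threshold. Array medians lay between 42 and 45, and the 24 genes lay between 64 and 4107, never below the 59.6th percentile of an array. Atg7 itself read 96 to 148 in the 6 KO arrays, against 286 to 457 in the 6 wt arrays; where its probe set lies relative to the floxed exons was not examined. The array wt sham 2 stood apart from the other wt sham arrays, and KO paraquat 3 from the other KO paraquat arrays, on principal components. On the main component (64.4% of the variance) wt sham 2 lay at -25.8, against -36.0 and -35.3 for the others. There KO paraquat 3 lay at 23.5, against 32.4 and 29.6. These 2 arrays also stood apart on lesser components. Counts without both are given below.

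Without paraquat, the loss of Atg7 went with a higher signal of nearly the whole synthesis pathway. In KO sham cells against wt sham cells, 15 of 16 measured synthesis enzymes rose and none fell, while 4.58% of all genes tested passed as higher and 5.67% as lower. The median log2 difference of the 16 enzymes was 0.66, against -0.0083 over all genes. All 16 log2 differences were above 0, as were 46.8% of those of all genes. Every KO sham array exceeded every wt sham array for all 16 enzymes, an arrangement found for 10.1% of all genes. The 6 enzymes up to squalene had a median log2 difference of 0.75 and the 10 later ones 0.58. In these bulk cultures a change in the RNA per cell and a change in the share of cells that express a gene cannot be told apart.

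Among the early enzymes, Hmgcs1, the cytosolic synthase that makes HMG-CoA, read 4107, 4107 and 3824 in KO sham arrays, against 2714, 2059 and 2078 in wt sham arrays. Its log2 difference was 0.82 ± 0.11 (SE), or 1.77-fold, with an adjusted p of 0.000452. The KO sham arrays lay far above the wt sham range, in which array 1 was the highest. Mvk, the kinase that phosphorylates mevalonate, read 304, 320 and 248 in KO sham arrays, against 194, 168 and 183 in wt sham arrays (log2 difference 0.67 ± 0.11, adjusted p 0.00156). Pmvk, the next kinase in line, read 408, 366 and 404 in KO sham arrays, against 229, 198 and 220 in wt sham arrays. The Pmvk difference of 0.87 ± 0.10 on the log2 scale was 1.82-fold, with an adjusted p of 0.000225. Both kinases were higher in every KO sham array. Mvd, the decarboxylase that forms isopentenyl diphosphate, read 323, 261 and 321 in KO sham arrays, against 199, 134 and 163 in wt sham arrays (log2 difference 0.88 ± 0.13, adjusted p 0.000901).

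The other early enzymes were Fdps, which makes farnesyl diphosphate, and Fdft1, which joins farnesyl units into squalene. They rose by 0.65 ± 0.14 and 0.55 ± 0.091 on the log2 scale, with adjusted p of 0.00835 and 0.00212. The Fdps call was lost when the arrays wt sham 2 and KO paraquat 3 were both left out (log2 difference 0.56, adjusted p 0.0548).

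Among the enzymes that turn squalene into cholesterol, Cyp51, the lanosterol demethylase, read 1995, 1952 and 2068 in KO sham arrays, against 1235, 855 and 1078 in wt sham arrays. The log2 difference was 0.94 ± 0.12, or 1.92-fold, with an adjusted p of 0.000294, and the lowest KO sham array was well above the highest wt sham array. Sc5d, the sterol desaturase near the end of the chain, read 1367, 1444 and 1378 in KO sham arrays, against 998, 681 and 714 in wt sham arrays (log2 difference 0.83 ± 0.12, adjusted p 0.00108). Nsdhl, which removes a methyl group together with Msmo1 and Hsd17b7, rose by 0.94 ± 0.16 on the log2 scale (adjusted p 0.00203). Msmo1, the sterol methyl oxidase, rose by 0.43 ± 0.079, and Hsd17b7, the keto-sterol reductase of that step, by 0.53 ± 0.09. Ebp, the sterol isomerase, rose by 0.71 ± 0.12, Sqle, the squalene epoxidase, by 0.60 ± 0.11, and Lss, the cyclase that forms lanosterol, by 0.44 ± 0.081. Dhcr7, the last reductase of one branch, rose by 0.56 ± 0.11, with an adjusted p of 0.00578, but missed the threshold when only the KO sham and wt sham arrays were fitted (adjusted p 0.0654). Tm7sf2, a sterol reductase, was the enzyme that did not pass, with 154, 135 and 174 in KO sham arrays, against 131, 108 and 128 in wt sham arrays (log2 difference 0.33 ± 0.11, adjusted p 0.078).

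**Figure D1:**
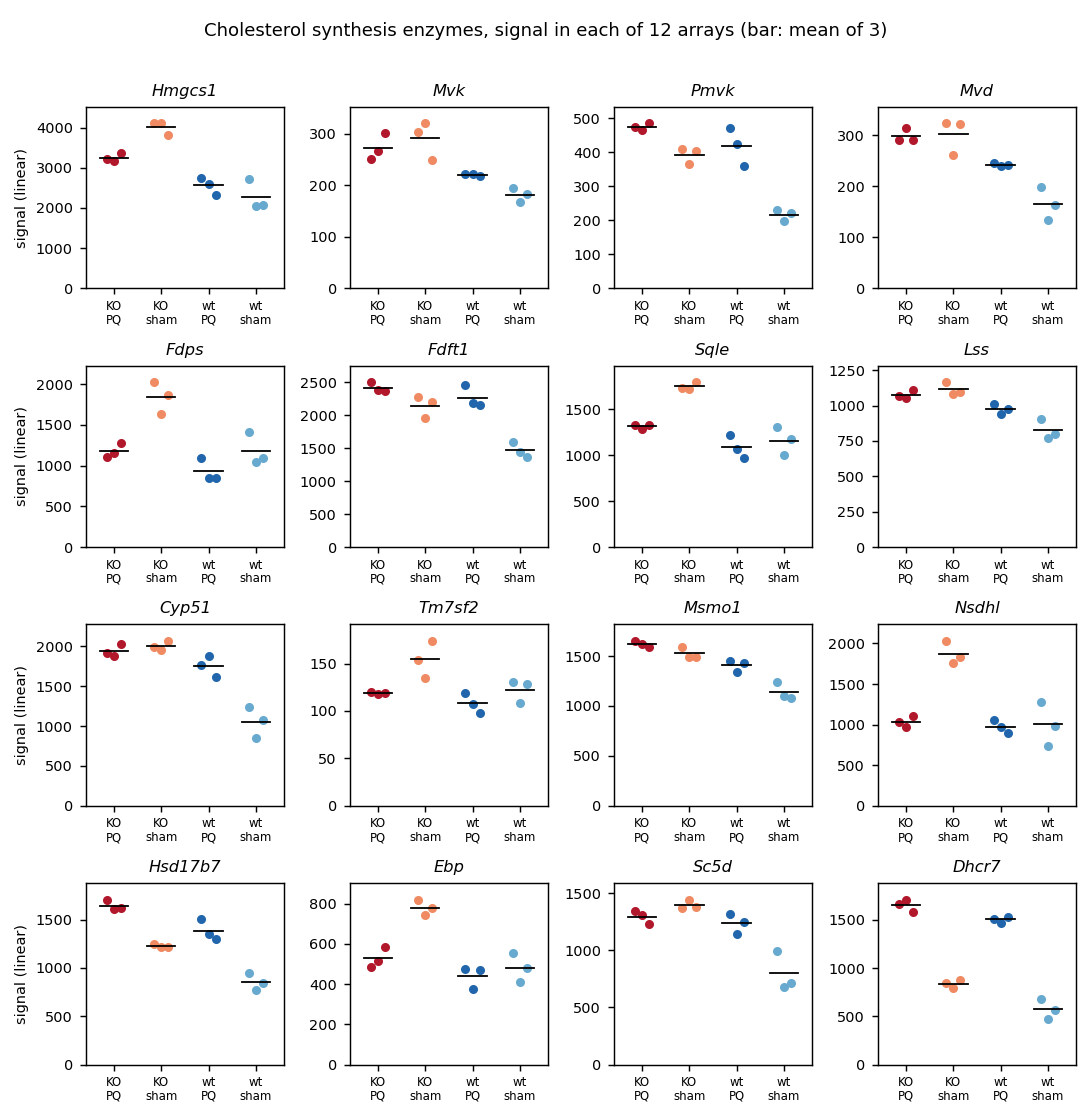
Signal (linear, arbitrary units, each axis from 0) of the 16 measured synthesis enzymes, with 1 point per array, a bar at the mean of 3 and the groups KO paraquat, KO sham, wt paraquat and wt sham from left to right (PQ is paraquat). All KO sham points lie above the wt sham points of the same enzyme.

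The spread was unequal. The median coefficient of variation over the 16 enzymes was 3.55% in KO paraquat, 5.17% in KO sham, 7.67% in wt paraquat and 14.1% in wt sham cells. Within wt sham cells, array 1 was the highest for all 16 enzymes and array 2 the lowest for 14. A fit without the 2 arrays that stood apart gave 16 genes higher and 1 lower in KO sham cells among the 24, against 17 higher and 1 lower with all arrays. The fit uses 1 spread per gene for all 4 groups, so its SE and p-values do not reflect the wider spread of wt sham cells. With only the KO sham and wt sham arrays fitted, 16 of the 24 passed as higher and 1 as lower. Over all genes 976 then passed, against 2273 with all arrays.

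The feedback genes did not move as a block. Insig1, the INSIG whose own gene is an SREBP target, read 1526, 1371 and 1369 in KO sham arrays, against 918, 657 and 666 in wt sham arrays. Its log2 difference of 0.94 ± 0.12 was 1.92-fold, with an adjusted p of 0.000312, as large as that of Cyp51 or Nsdhl. Insig2, which is not driven by SREBP in the same way, read 193, 180 and 189 in KO sham arrays, against 171, 183 and 154 in wt sham arrays, with overlapping ranges. Its log2 difference was 0.15 with a 95% interval of -0.04 to 0.34. Srebf1 and Srebf2, the genes of the SREBPs themselves, overlapped between the genotypes, with log2 differences of 0.12 (95% interval -0.07 to 0.32) and 0.04 (95% interval -0.16 to 0.23). Scap read 639, 688 and 732 in KO sham arrays, against 783, 779 and 838 in wt sham arrays. All 3 KO sham arrays were lower, but the log2 difference of -0.22 did not pass (adjusted p 0.103).

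Stard4, which carries sterol between membranes, read 335, 292 and 349 in KO sham arrays, against 218, 174 and 174 in wt sham arrays (log2 difference 0.79 ± 0.11, adjusted p 0.000667). Of the exporters, Abca1, which passes cholesterol to apolipoproteins, was the one gene of the 24 that fell, and it is shown for that reason. It read 195, 254 and 189 in KO sham arrays, against 323, 489 and 368 in wt sham arrays. The log2 difference was -0.88 ± 0.15, or 1.84-fold lower, with an adjusted p of 0.00211, and the groups did not overlap. Abcg1, a second exporter, gave no call, with 74, 72 and 68 in KO sham arrays, against 79, 75 and 64 in wt sham arrays.

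**Figure D2:**
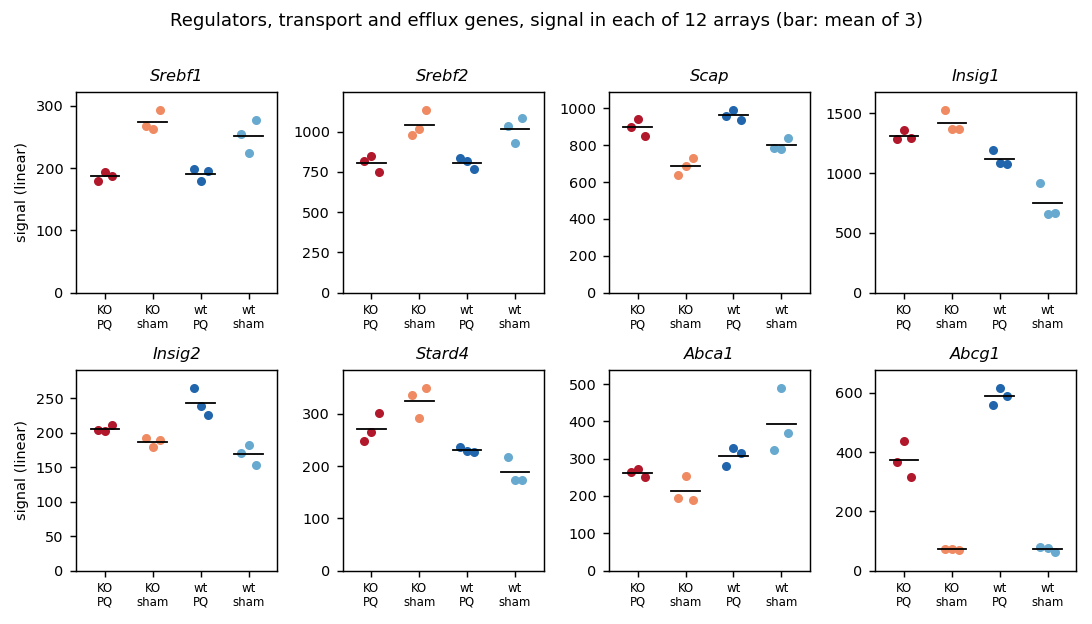
Signal (linear, arbitrary units, each axis from 0) of the SREBP regulators, Stard4, Abca1 and Abcg1, with 1 point per array, a bar at the mean of 3 and the 4 groups in the order KO paraquat, KO sham, wt paraquat and wt sham (PQ is paraquat). Insig1 and Stard4 are higher and Abca1 lower in KO sham than in wt sham cells, and Abcg1 is far higher in both paraquat groups.

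Because the synthesis enzymes moved together in this comparison, their promoters are shown. The RefSeq promoter table (GRCm38.p6, 250 bases before to 50 after each start) held 19 of the 24 genes, and none for Fdps, Fdft1, Sqle, Stard4 or Abcg1. It was searched on both strands for the sterol regulatory element TCACNCCAC, to which SREBPs bind, for its first 8 letters TCACNCCA, which the full element contains, and for CCAAT, the letters bound by NF-Y, a usual partner of SREBP. The full element was found in Hmgcs1 alone, 1 of the 27 promoters of these genes (3.7%), against 1.24% of all promoters in the table. Its first 8 letters were found in Hmgcs1, Msmo1 and Srebf2, 3 of the 27 promoters (11.1%), against 4.36% of all promoters. CCAAT was found for all 13 synthesis enzymes in the table and in 13 of their 16 promoters, or 81.2%, against 37.4% of all promoters. By gene, 17 of the 19 genes held CCAAT, against 41.6% of the genes tested. A match describes the letters and says nothing of binding in these cells. A missing match does not show that an element is absent, because only these letters and this stretch were searched. The stretches that hold the element (Hmgcs1) or its first 8 letters alone (Msmo1 and Srebf2) are given 5′ to 3′ along the gene, from 200 to 121 bases before the start, at chr13:119690151-119690230 (plus strand) for Hmgcs1, chr8:64733699-64733778 (minus strand) for Msmo1 and chr15:82147069-82147148 (plus strand) for Srebf2. Capitals mark the element or its first 8 letters, and CCAAT or its complement ATTGG.
Hmgcs1: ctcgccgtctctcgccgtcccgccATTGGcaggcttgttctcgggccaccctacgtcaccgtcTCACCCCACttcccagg
Msmo1: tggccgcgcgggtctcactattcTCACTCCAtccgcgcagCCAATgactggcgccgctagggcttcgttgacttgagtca
Srebf2: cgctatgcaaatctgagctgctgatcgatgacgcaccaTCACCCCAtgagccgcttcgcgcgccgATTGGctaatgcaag

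All 3 stretches also held a CCAAT on one strand. Of these genes, Hmgcs1 and Msmo1 were higher in KO sham cells and Srebf2 gave no call. Stretches with CCAAT but without these letters are shown for Cyp51, Insig1 and Dhcr7, which were picked after their values were seen, as an enzyme and a regulator with large differences between the genotypes and the enzyme with the largest response to paraquat. They lie at chr5:4104702-4104746 (minus strand), chr5:28071176-28071220 (plus strand) and chr7:143830109-143830153 (plus strand).
Cyp51: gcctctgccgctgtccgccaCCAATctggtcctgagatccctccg
Insig1: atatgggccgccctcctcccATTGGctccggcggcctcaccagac
Dhcr7: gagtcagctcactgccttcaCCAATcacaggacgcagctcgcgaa

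In wt cells, paraquat raised part of the pathway. In wt paraquat cells against wt sham cells, 9 of 16 synthesis enzymes rose and none fell, while 14.9% of all genes tested passed as higher and 14.3% as lower. The median log2 change of the 16 enzymes was 0.29, against 0.0088 over all genes. Dhcr7 had the largest change of the enzymes, with 1514, 1473 and 1536 in wt paraquat arrays, against 680, 476 and 570 in wt sham arrays (log2 change 1.40 ± 0.11, 2.65-fold, adjusted p 5.09e-07). The lowest wt paraquat array lay far above the highest wt sham array.

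Pmvk read 470, 423 and 359 in wt paraquat arrays, against 229, 198 and 220 in wt sham arrays (log2 change 0.95 ± 0.10, adjusted p 8.77e-06). Fdft1 read 2460, 2186 and 2153 in wt paraquat arrays, against 1596, 1442 and 1359 in wt sham arrays (log2 change 0.63 ± 0.091, adjusted p 0.000128). These early enzymes did not overlap between treatments. Hsd17b7 read 1507, 1347 and 1298 in wt paraquat arrays, against 945, 771 and 842 in wt sham arrays (log2 change 0.70 ± 0.09, adjusted p 4.26e-05). Cyp51 read 1759, 1873 and 1616 in wt paraquat arrays, against 1235, 855 and 1078 in wt sham arrays (log2 change 0.74 ± 0.12, adjusted p 0.000227). Sc5d read 1316, 1141 and 1252 in wt paraquat arrays, against 998, 681 and 714 in wt sham arrays (log2 change 0.65 ± 0.12, adjusted p 0.0011). In each of these late enzymes, too, the lowest wt paraquat array exceeded the highest wt sham array. The enzymes Mvd, Msmo1 and Lss rose less, by 0.57 ± 0.13, 0.31 ± 0.079 and 0.24 ± 0.081 on the log2 scale. The Lss call was lost without wt sham 2 (adjusted p 0.115), wt sham 3 (0.109), wt paraquat 1 (0.119), wt paraquat 2 (0.0513) or wt paraquat 3 (0.0831).

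The 7 enzymes without a call in wt cells were Hmgcs1, Mvk, Fdps, Sqle, Tm7sf2, Nsdhl and Ebp, with log2 changes of -0.34 (Fdps) to 0.28 (Mvk). The response of wt cells was therefore uneven along the pathway, with Dhcr7, Pmvk, Cyp51 and Hsd17b7 high and Hmgcs1 at 2747, 2607 and 2326 in wt paraquat arrays, against 2714, 2059 and 2078 in wt sham arrays.

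Among the regulators, Insig2 read 265, 239 and 226 in wt paraquat arrays, against 171, 183 and 154 in wt sham arrays (log2 change 0.52 ± 0.087, adjusted p 0.000402). Insig1 rose by 0.60 ± 0.12 (adjusted p 0.00132) and Scap by 0.27 ± 0.079 (adjusted p 0.02). Srebf1 and Srebf2 fell, with log2 changes of -0.40 ± 0.091 (adjusted p 0.00433) and -0.33 ± 0.09 (adjusted p 0.0121). The Scap call was lost without wt sham 1 (adjusted p 0.0592), wt sham 2 (0.0528) or wt paraquat 2 (0.0692), and the Srebf2 call without wt sham 3 (0.0549) or wt paraquat 3 (0.0517). Scap had 2 probe sets, and its call was also lost with their mean (log2 change 0.20, adjusted p 0.0796). A second quantile normalization lost it too (adjusted p 0.0536).

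Abcg1 had the largest change of the 24 genes, with 560, 616 and 589 in wt paraquat arrays, against 79, 75 and 64 in wt sham arrays. The log2 change was 3.02 ± 0.12, or 8.12-fold, with an adjusted p of 1.96e-09. Abca1, the other exporter, did not rise with it: it read 280, 329 and 316 in wt paraquat arrays, against 323, 489 and 368 in wt sham arrays (log2 change -0.33, adjusted p 0.114). In all, 13 of the 24 genes rose and 2 fell in wt cells, and 11 rose and 2 fell with wt sham 2 and KO paraquat 3 left out.

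In KO cells, paraquat lowered more of the enzymes than it raised. In KO paraquat cells against KO sham cells, 2 of 16 synthesis enzymes rose and 5 fell, while 14.5% of all genes tested passed as higher and 12.6% as lower. The median log2 change of the 16 was -0.07, against 0.0079 over all genes. Dhcr7 rose again, with 1666, 1712 and 1588 in KO paraquat arrays, against 844, 791 and 880 in KO sham arrays (log2 change 0.98 ± 0.11, adjusted p 1.91e-05). Hsd17b7 read 1708, 1606 and 1623 in KO paraquat arrays, against 1246, 1212 and 1215 in KO sham arrays (log2 change 0.43 ± 0.09, adjusted p 0.0027). These 2 enzymes rose in both genotypes.

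Nsdhl fell most among the enzymes, with 1033, 972 and 1107 in KO paraquat arrays, against 2033, 1761 and 1834 in KO sham arrays (log2 change -0.85 ± 0.16, 1.81-fold lower, adjusted p 0.000942). Fdps read 1101, 1156 and 1272 in KO paraquat arrays, against 2026, 1638 and 1861 in KO sham arrays (log2 change -0.64 ± 0.14, adjusted p 0.00278). Ebp read 485, 513 and 585 in KO paraquat arrays, against 820, 742 and 779 in KO sham arrays (log2 change -0.57 ± 0.12, adjusted p 0.00349). In all 3 genes the KO paraquat arrays lay below the KO sham arrays, at levels that overlapped those of the wt sham arrays. Sqle and Tm7sf2 fell by 0.41 ± 0.11 and 0.37 ± 0.11 on the log2 scale, with adjusted p of 0.00971 and 0.0235. The Tm7sf2 call was lost without KO sham 1 (adjusted p 0.0548), KO sham 3 (0.105), KO paraquat 1 (0.0566), KO paraquat 2 (0.0648) or KO paraquat 3 (0.0576). Hmgcs1 read 3210, 3180 and 3366 in KO paraquat arrays, against 4107, 4107 and 3824 in KO sham arrays, without overlap, but its log2 change of -0.30 did not pass (adjusted p 0.0533).

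Srebf1 fell in KO cells as well, with 180, 193 and 187 in KO paraquat arrays, against 267, 262 and 293 in KO sham arrays (log2 change -0.55 ± 0.091, adjusted p 0.000452). Srebf2 fell by 0.37 ± 0.09 on the log2 scale (adjusted p 0.00661). Scap read 900, 940 and 851 in KO paraquat arrays, against 639, 688 and 732 in KO sham arrays (log2 change 0.39 ± 0.079, adjusted p 0.0022). So the genes of both SREBPs fell and that of their escort rose with paraquat in either genotype. In wt cells the Scap and Srebf2 calls depended on the arrays or settings used, as given above. Insig1 and Insig2 gave no call in KO cells, with log2 changes of -0.12 (95% interval -0.37 to 0.14) and 0.14 (95% interval -0.05 to 0.33). Abcg1 read 366, 438 and 316 in KO paraquat arrays, against 74, 72 and 68 in KO sham arrays (log2 change 2.38 ± 0.12, 5.19-fold, adjusted p 3.76e-08). In all, 4 of the 24 genes rose and 7 fell in KO cells, and the counts were the same without wt sham 2 and KO paraquat 3.

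Some markers of other cell types changed with paraquat. Of all genes tested, 14.5% passed as higher and 12.6% as lower in KO cells. In wt cells these shares were 14.9% and 14.3%. The mean log2 signal of 8 melanocyte markers was 6.05 to 6.18 in KO paraquat arrays and 5.46 to 5.63 in KO sham arrays, and it was 6.04 to 6.32 in wt paraquat arrays and 5.31 to 5.60 in wt sham arrays, with 4 of 8 higher in each genotype. For 7 leukocyte and Langerhans cell markers it was 5.56 to 5.64 in KO paraquat and 5.37 to 5.42 in KO sham arrays, and 5.79 to 5.88 in wt paraquat and 5.38 to 5.47 in wt sham arrays. Of these, 2 rose and 1 fell in KO cells and 3 rose in wt cells. Endothelial markers rose in 2 of 6 genes in KO and 3 of 6 in wt cells, fibroblast markers in 1 of 8 and adipocyte markers in 1 of 5 in either genotype. Of 8 sebocyte markers, 1 fell in KO cells, and 1 rose and 1 fell in wt cells. A count of 1 in lists of this size is near the shares of all genes. Of 5 measured keratinocyte markers, 3 (Krt14, Krt1 and Krt10) fell in both genotypes. Between KO sham and wt sham cells, Tek, an endothelial marker, was higher and Itgam, a myeloid marker, lower, and no other marker passed. Of all genes tested, 4.58% passed as higher and 5.67% as lower in that comparison. No probe set read 0. By group, the mean log2 signal was 5.06 to 5.36 for fibroblast and 4.90 to 5.48 for endothelial markers. For sebocyte markers it was 4.45 to 4.58, and for adipocyte markers 4.43 to 4.92. Over all genes tested it was 6.10 to 6.13, so these lists lay below the mean of all genes. The leukocyte and Langerhans cell list, at 5.39 to 5.83 by group, lay below it too. The melanocyte list lay below it in KO sham (5.56) and wt sham cells (5.49), and read 6.12 in KO paraquat and 6.18 in wt paraquat cells. The part of the markers in the sterol results was not tested.

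The responses of the genotypes were set against each other directly. The log2 response of each enzyme was lower in KO than in wt cells: the difference of log2 responses, KO minus wt, was below 0 for all 16 enzymes, where 50.4% of all genes were above 0, with a median of -0.43, against 0.00066 over all genes. It passed for 3 enzymes, all below 0, while 0.897% of all genes passed as lower and 1.39% as higher. At an unadjusted p under 0.05 the count was 13 of 16, against 7.39% of all genes as lower. The KO sham and wt sham arrays enter both this difference and the comparison of the genotypes without paraquat.

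Cyp51 had the smallest p. It read 1918, 1876 and 2031 in KO paraquat arrays and 1995, 1952 and 2068 in KO sham arrays, while it rose in wt cells by the values given above, and the difference of responses was -0.79 ± 0.16 (log2, adjusted p 0.0254). Pmvk read 475, 466 and 485 in KO paraquat arrays and 408, 366 and 404 in KO sham arrays, with a difference of -0.67 ± 0.14 (adjusted p 0.0297). Sc5d read 1341, 1310 and 1227 in KO paraquat arrays and 1367, 1444 and 1378 in KO sham arrays, with a difference of -0.76 ± 0.17 (adjusted p 0.0413). In Cyp51 every KO array of either treatment lay above the wt paraquat arrays, in Sc5d these ranges overlapped, and in both genes the wt sham arrays lay below all others. Insig1 was the regulator with a difference, reading 1283, 1359 and 1290 in KO paraquat arrays and 1526, 1371 and 1369 in KO sham arrays (difference -0.72 ± 0.17, adjusted p 0.0425). These 4 calls sit near the threshold. Leaving out wt sham 3, KO sham 1, KO sham 3, wt paraquat 1, wt paraquat 2, KO paraquat 1 or KO paraquat 2 left 0 of the 4, and 1 other gene of the 24 passed without KO paraquat 2. Without wt sham 2, KO sham 2 or KO paraquat 3, 1 of the 4 remained, and without wt paraquat 3, 2 remained. Leaving out wt sham 1 gave 10 calls among the 24.

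**Figure D3:**
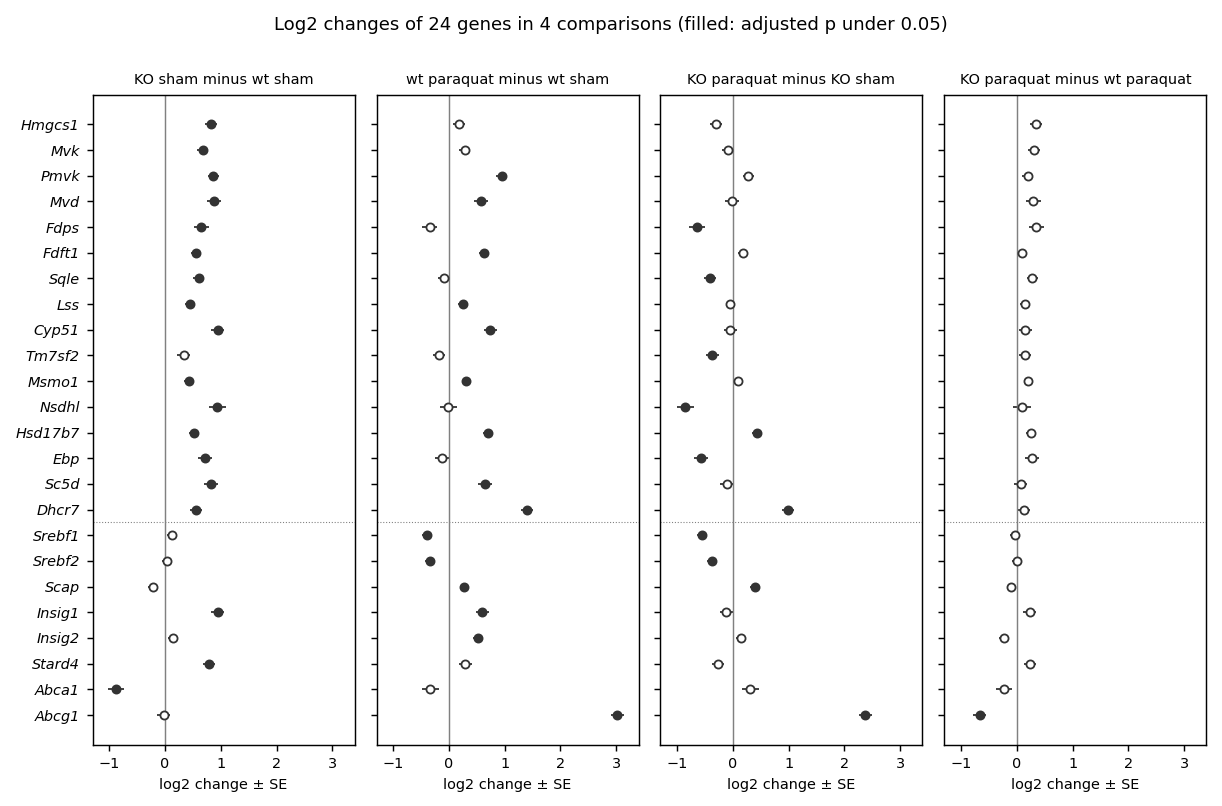
Log2 changes ± SE of the limma fit for the 24 genes in 4 comparisons, 1 panel each, with filled points at an adjusted p under 0.05. The synthesis enzymes lie above 0 in KO sham minus wt sham and scatter on both sides of 0 in the responses to paraquat, where Abcg1 has the largest change in both genotypes.

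Side by side, the calls in the 2 genotypes fell into 4 sets. The enzymes Pmvk, Mvd, Fdft1, Lss, Cyp51, Msmo1 and Sc5d passed as higher in wt cells and gave no call in KO cells. Hsd17b7 and Dhcr7 passed as higher in both. The enzymes Fdps, Sqle, Tm7sf2, Nsdhl and Ebp passed as lower in KO cells and gave no call in wt cells. Hmgcs1 and Mvk passed in neither. Of the 14 enzymes called in either genotype, Pmvk, Cyp51 and Sc5d alone passed the test of the difference itself.

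Under paraquat the genotypes lay closer together. In KO paraquat cells against wt paraquat cells, 0 of 16 synthesis enzymes passed with limma, while 0.0992% of all genes tested passed as higher and 0.451% as lower. At an unadjusted p under 0.05, 7 enzymes were higher and 0 lower, against 4.63% of all genes as higher and 6.41% as lower. The log2 differences of all 16 were above 0, from 0.07 (Sc5d) to 0.35 (Hmgcs1 and Fdps), with a median of 0.20, and 48.1% of all genes had a difference above 0. For 11 of 16 every KO paraquat array exceeded every wt paraquat array, against 7.94% of all genes. Hmgcs1 read 3210, 3180 and 3366 in KO paraquat arrays, against 2747, 2607 and 2326 in wt paraquat arrays (log2 difference 0.35, 95% interval 0.12 to 0.58, adjusted p 0.21). Dhcr7 had a log2 difference of 0.13 with a 95% interval of -0.10 to 0.37.

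The one call in this comparison was Abcg1, which read 366, 438 and 316 in KO paraquat arrays, against 560, 616 and 589 in wt paraquat arrays. The log2 difference was -0.67 ± 0.12, or 1.59-fold lower, with an adjusted p of 0.0236, and the groups did not overlap. The call was lost without wt paraquat 1 (adjusted p 0.0897), wt paraquat 2 (0.121), wt paraquat 3 (0.0641), KO paraquat 1 (0.0708) or KO paraquat 3 (0.114), at log2 differences of -0.70, -0.63, -0.67, -0.66 and -0.55 in that order. The smaller response of Abcg1 in KO cells, -0.65 ± 0.16 as a difference of log2 responses, did not pass (adjusted p 0.0601). Abca1 had a difference of 0.65 ± 0.21 between its responses (adjusted p 0.137), the opposite sign to Abcg1.

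**Figure D4:**
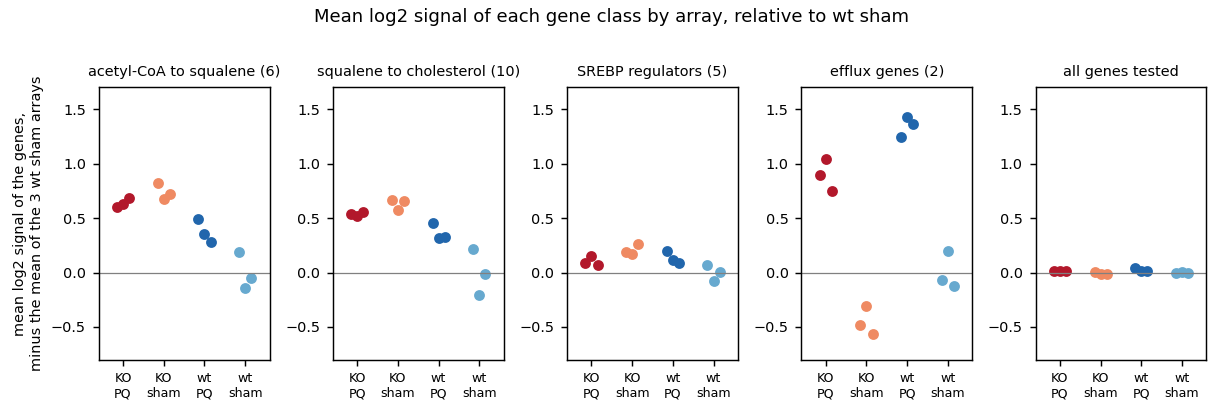
Mean log2 signal of each class of genes by array, drawn relative to the mean of the wt sham arrays, with the groups KO paraquat, KO sham, wt paraquat and wt sham from left to right (PQ is paraquat). For the synthesis enzymes wt sham is the lowest group and also the most spread.

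Over the 4 groups, the mean log2 signal of the 16 enzymes was 9.87 ± 0.026 in KO paraquat, 9.97 ± 0.055 in KO sham, 9.67 ± 0.086 in wt paraquat and 9.30 ± 0.19 in wt sham cells (SD, n = 3 each). By group mean, KO sham was the highest group for 11 enzymes and KO paraquat for 5. The lowest group was wt sham for 11 and wt paraquat for 5. For Dhcr7 and Hsd17b7 every paraquat array lay above every sham array. By group mean both paraquat groups also lay above both sham groups for Pmvk and Fdft1, with overlapping arrays. For Cyp51 and Sc5d KO sham was the highest group. In all of these genes wt sham was the lowest group.

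Related genes outside the list gave a wider view of the pathway, 65 genes in 7 groups. Their counts stand beside shares of all genes tested of 4.58% higher and 5.67% lower in KO sham against wt sham cells, 14.5% higher and 12.6% lower with paraquat in KO cells, and 14.9% higher and 14.3% lower with paraquat in wt cells. Over the 65 genes, 14 rose and 11 fell in KO sham against wt sham cells, 17 rose and 16 fell with paraquat in KO cells, and 21 rose and 20 fell with paraquat in wt cells. In groups of this size a count of 1 or 2 with paraquat is near those shares. The shares without paraquat are smaller, and there a count of 1 rests on 1 gene. Of 6 other synthesis enzymes and SREBP targets, all 6 rose in KO sham against wt sham cells, among them Acss2, which makes acetyl-CoA from acetate (log2 difference 1.17 ± 0.14, adjusted p 0.000256), Acly, which makes it from citrate (0.75 ± 0.09, adjusted p 0.000285), and Lpin1, a phosphatidate phosphatase (0.66 ± 0.11, adjusted p 0.0025). Acss2 read 151, 172 and 154 in KO sham arrays, against 88, 60 and 67 in wt sham arrays. In this group 1 rose and 3 fell with paraquat in KO cells, and 3 rose and 1 fell in wt cells. Lpin1 rose in both, by 0.92 ± 0.11 in KO and 1.51 ± 0.11 in wt cells. The responses differed for Acss2 (-1.18 ± 0.20, adjusted p 0.00785) and Acly (-0.57 ± 0.13, adjusted p 0.0378).

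Of 9 SREBP-1 fatty acid targets, 5 rose and 1 fell in KO sham against wt sham cells. Elovl6, a fatty acid elongase, read 1217, 1184 and 1185 in KO sham arrays, against 531, 295 and 410 in wt sham arrays (log2 difference 1.58 ± 0.17, adjusted p 0.000127). The desaturase Fads2 rose by 1.12 ± 0.19 and Mid1ip1, a regulator of fatty acid synthesis, fell by 0.54 ± 0.09. In this group paraquat gave 2 higher and 5 lower in KO cells, and 4 higher and 3 lower in wt cells. The response of Elovl6 differed between the genotypes by -1.29 ± 0.24 (adjusted p 0.0143). The higher signals in KO sham cells thus included enzymes of fatty acid synthesis as well as those of sterol synthesis.

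Of 9 genes of SREBP processing and INSIG turnover, 1 fell and none rose in KO sham against wt sham cells. It was Erlin1, an endoplasmic reticulum protein that restrains SREBP activation in cultured cells, with 256, 235 and 211 in KO sham arrays, against 431, 818 and 595 in wt sham arrays (log2 difference -1.35 ± 0.21, adjusted p 0.00156). With paraquat 2 of the 9 fell in KO cells, and 1 rose and 6 fell in wt cells. Mbtps1, the first protease that cuts SREBP, had log2 changes of -0.85 ± 0.13 in KO and -0.87 ± 0.13 in wt cells (adjusted p 0.00027 and 0.000179). The response of Erlin1 differed between genotypes by 1.60 ± 0.30 (adjusted p 0.0154), with 144, 176 and 164 in KO paraquat arrays, against 100, 153 and 161 in wt paraquat arrays.

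Of 14 genes of lipoprotein uptake and lysosomal cholesterol handling, 1 rose and 4 fell in KO sham against wt sham cells. Vldlr, a lipoprotein receptor, read 191, 228 and 205 in KO sham arrays, against 355, 325 and 316 in wt sham arrays (log2 difference -0.68 ± 0.10, adjusted p 0.00119). With paraquat 6 rose and 2 fell in KO cells, and 4 rose and 4 fell in wt cells. Gramd1c, of the family that carries cholesterol from the plasma membrane to the endoplasmic reticulum, read 339, 363 and 283 in KO paraquat arrays and 132, 141 and 103 in KO sham arrays. It read 587, 575 and 487 in wt paraquat arrays and 108, 122 and 114 in wt sham arrays. Like Abcg1, it was higher in both paraquat groups and lower in KO paraquat than in wt paraquat cells (log2 difference -0.75 ± 0.13, adjusted p 0.0236), and its responses differed by -0.86 ± 0.18 (adjusted p 0.0283).

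The other groups moved in both directions. Of 8 genes of the liver X receptor and its targets, 1 rose and 2 fell in KO sham against wt sham cells, and paraquat gave 2 higher and 1 lower in KO and 5 higher and 1 lower in wt cells. Apoe, the apolipoprotein that accepts exported cholesterol, fell with paraquat in KO (-0.77 ± 0.11, adjusted p 0.000133) and in wt cells (-1.0 ± 0.11, adjusted p 1.07e-05), whereas Abca12, the lipid transporter of the skin barrier, rose in both (1.01 ± 0.11 and 0.65 ± 0.11, adjusted p 1.3e-05 and 0.000393). Of 7 genes of sterol storage, sulfation and oxidation, 1 rose and 2 fell in KO sham against wt sham cells. Among them Cyp27a1, a sterol hydroxylase, had a log2 difference of -1.0 ± 0.13 (adjusted p 0.00043). In this group paraquat gave 3 higher and 3 lower in KO and 2 higher and 2 lower in wt cells, and Lipe, a lipase that also splits cholesterol esters, rose by 1.44 ± 0.13 in each. Of 12 genes of the isoprenoid branch (prenylation, dolichol and ubiquinone), which draws on farnesyl diphosphate, none rose and 1 fell in KO sham against wt sham cells, Dhdds of dolichol synthesis (-0.38 ± 0.10, adjusted p 0.0224). Paraquat gave 3 higher and 0 lower in KO and 2 higher and 3 lower in wt cells for this branch.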

How the data were processed

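Total RNA of 12 arrays was labelled with biotin and hybridised to Affymetrix arrays. Per the submitters' processing notes, RMA and Affymetrix Expression Console (version 1.3.1.187) made the deposited intensity of each probe set. The values were whole numbers from 3 to 17695 and were read as linear signals, and their log2 was taken. Any filter is not given in the sources used here. The platform annotation gave 1 gene symbol to 23521 of the 41345 probe sets, several to 1814 and none to 16010. Gene identifiers matched RefSeq (GRCm38.p6) for 23328, which changed 0 symbols. For 1082 genes with several probe sets, the one with the highest mean was used, and 23 of the 24 members had 1. No filter on signal was set.

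A linear model of the 4 group means was fitted to 22180 genes with limma 3.58.1 (lmFit and eBayes, R 4.3.3). Tests were 2-sided with Benjamini-Hochberg adjustment, a threshold of 0.05, and no block. The number of arrays limits the precision. Members in each comparison (up to 8 by adjusted p) have their arrays printed, and related groups name up to 3 genes past the threshold. The members and lists were chosen with earlier results of these data known. Alternatives covered normalization, filters, offset, probe sets, weights, block and left-out arrays. Replicate numbers are shared between groups, but same-numbered arrays did not deviate together (correlations of -0.0727 to 0.0902 over 18 pairs), so they were not treated as pairs.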

Additional observations from a re-analysis of the deposited data

Results flagged for a closer look

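The response to paraquat differed between the genotypes for 4 of the 24 genes by the interaction term of the limma fit, which was the ground for listing them here. All 4 passed as lower, while 0.897% of all genes tested passed as lower and 1.39% as higher. The calls sit near the threshold, and leaving out 1 array at a time gave 0 to 10 calls among the 24. The KO response minus the wt response, on the log2 scale, was -0.67 for Pmvk, -0.79 for Cyp51, -0.76 for Sc5d and -0.72 for Insig1.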

How the results depend on the processing

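The count of changed genes among the 24 was 18 for KO sham against wt sham (17 to 19 under all alternatives), 15 for paraquat in wt cells (13 to 18) and 11 for paraquat in KO cells (10 to 13), each within 1.5 times the value reported. For KO paraquat against wt paraquat it was 1, and 0 with only the arrays compared or with wt sham 2 and KO paraquat 3 both left out. Leaving out 1 array at a time gave 0 to 1. For the difference of responses it was 4, and 8 with dim genes filtered out, 7 with a trend in the variance, 7 with 16 added to each signal and 1 with wt sham 2 and KO paraquat 3 both left out. Leaving out 1 array at a time gave 0 to 10. The causes were not tested.

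With the replicate number as a block the counts were 18 (KO sham against wt sham), 17 (paraquat in wt cells), 12 (paraquat in KO cells), 1 (KO paraquat against wt paraquat) and 6 (difference of responses), each within 1.5 times the value without it. The 49 gene results called in the fit reported above gave 1123 values under the alternatives. Of these values, 1051 kept direction and call, 72 lost the call and 0 reversed. Results without a call are not in this count, and some of them changed sign. Nsdhl with paraquat in wt cells, for example, had log2 changes of -0.21 to 0.19 with arrays left out. All 16 synthesis enzymes stayed above 0 in KO sham against wt sham cells, and 14 to 16 passed. The number of arrays, 3 per group, limits what could be detected.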
